A study of Mus musculus with 5 samples.

Results

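Glycolysis, the citric acid cycle and gluconeogenesis were followed through 46 genes for their enzymes and for the kinases and phosphatases that set their flow, chosen as a fixed list of gene symbols. Of the 46, 45 had a value in all 5 libraries of the series, among 16992 symbols common to the 5, and 38 had a mean level high enough to be tested. Cells had been sorted fresh from the pancreas of adult C57BL/6 mice and their RNA sequenced, with 2 libraries from CD133(positive)CD71(negative) cells. Another 3 came from CD133(high)CD71(low) cells, 1 of them with no number in its title and called library 3 here. The labels give no allele beyond the strain and no treatment, and both groups were sorted on surface CD133, the product of Prom1. CD71 is the transferrin receptor, the product of Tfrc. GEO's marker field describes the CD133(high)CD71(low) libraries as positive for CD71, whereas their titles call it low. No label ties a library to an animal, a pool or a sort, so a p-value here covers the spread between libraries alone, and that spread may be technical. Per its title, the series concerns colony-forming progenitor cells of the pancreas.

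Glycolysis splits glucose into pyruvate in the cytosol, gluconeogenesis runs the route backwards past its irreversible steps, and the citric acid cycle oxidises the acetyl group made from pyruvate in mitochondria. Many steps have several isozymes, which differ between cell types: hexokinase is encoded by several genes, pyruvate kinase has the M forms and the L/R forms of liver and red cells, and lactate dehydrogenase is assembled from A and B subunits. The pentose phosphate pathway branches off after hexokinase and supplies NADPH and ribose.

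Levels are in RPKM, that is reads for each kilobase of transcript relative to library depth, a unit inferred from the deposited values, so levels of different genes are compared per length. Depth, which no label gives, was inferred from steps among the low values, at between 19.73 and 41.84 M reads (M, 1e6) per library. Library 3 was deposited with other gene models (22522 symbols against 18618), was normalized in its own table, and differed from the other CD133(high)CD71(low) libraries, 1 and 2. Across the members, Pearson's r of the log values was 0.967 with each of them, against 0.999 between libraries 1 and 2. Prom1 was 45.8 and 48.8 RPKM in CD133(positive)CD71(negative) cells against 72.8, 74.7 and 133 RPKM in CD133(high)CD71(low) cells. Tfrc was 4.00 and 4.36 RPKM against 5.34, 6.84 and 12.2 RPKM. Fixed marker lists other than the acinar one had markers called between the groups. In the limma fit described below, 6.25% of all genes tested were called higher and 7.22% lower. Of the duct epithelial markers, 10 of 14 were higher in CD133(high)CD71(low) cells. Lower there were 15 of 16 tested leukocyte markers, 14 of 14 endothelial markers, 7 of 10 tested mesenchymal markers and 5 of 11 tested endocrine markers, and 3 of 4 tested erythroid markers were higher. No listed marker with a value in all tables was at 0 in any library. Beside the 5 lower endocrine markers, Ins2 was 732 and 508 RPKM against 1048, 1151 and 325 RPKM, with overlap. Of 36 acinar markers, 0 were called higher and 0 lower. Their share of the summed values was nonetheless lower in all CD133(high)CD71(low) libraries. It was 64.6% and 61.3% in CD133(positive)CD71(negative) libraries against 56.6%, 57.2% and, in library 3, 32.3%. In such bulk samples, fewer cells of a type and less RNA per cell cannot be told apart.

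Ldhb, Pklr, Idh2 and Tpi1 rose and Hk1 fell in CD133(high)CD71(low) cells, and these were the only members called. The other 33 tested members did not pass. The test was limma on log2(RPKM + 1) over all genes, with an adjusted p under 0.05 as the threshold. A positive fold change on that scale means a higher level in CD133(high)CD71(low) cells, and it understates the change of low genes. The 5 calls were 13.2% of the 38 tested members, against 13.5% of 11769 genes tested (6.25% higher and 7.22% lower), so the members' share was near that of all genes. The median fold change of the 38 was 0.36, against 0.31 for all genes, and 31 of the 38 (81.6%) were above 0, against 80.4% of all genes. With values rescaled by the median of ratios, the median of all genes dropped from 0.31 to 0.02 and that of the members from 0.36 to 0.04. Such scaling divides all genes of a library by the same factor and brings their median near 0 by design. A joint shift of both medians was thus given in advance. Higher and lower calls were then 2 and 1, with Ldhb and Pklr higher and Hk1 lower, against 11.6% of all genes (1.93% higher and 9.68% lower).

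Library 3 set much of the spread. It held the highest of the 5 values for 27 of the 38 tested members, and 66.3% of all tested genes did the same. The CD133(high)CD71(low) libraries lay wholly above the other group for 26 members, wholly below for 4 and overlapped for 8. Groups were apart for 78.9% of the members and 70.2% of all tested genes, where 58.2% lay above and 12% below. Without library 3, limma called 21 members higher and 1 lower, where 53.1% of all genes were called, 40.9% higher and 12.2% lower. With those 4 numbered libraries rescaled by the median of ratios, 4 members were higher and 5 lower, against 30.5% of all genes, 12.3% higher and 18.1% lower. These 9 hold all 5 of the calls made with 5 libraries, plus Pkm, Eno3, Pfkfb3 and Ldha as lower. With any 1 of the other 4 libraries left out, limma called no member, with 5 to 9 higher and 0 to 1 lower at an unadjusted p under 0.05. Of all genes, 1.33% to 7.39% were called in those fits, and 6.7% to 20.9% were higher and 6.6% to 8.9% lower at an unadjusted p under 0.05.

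**Figure D1:**
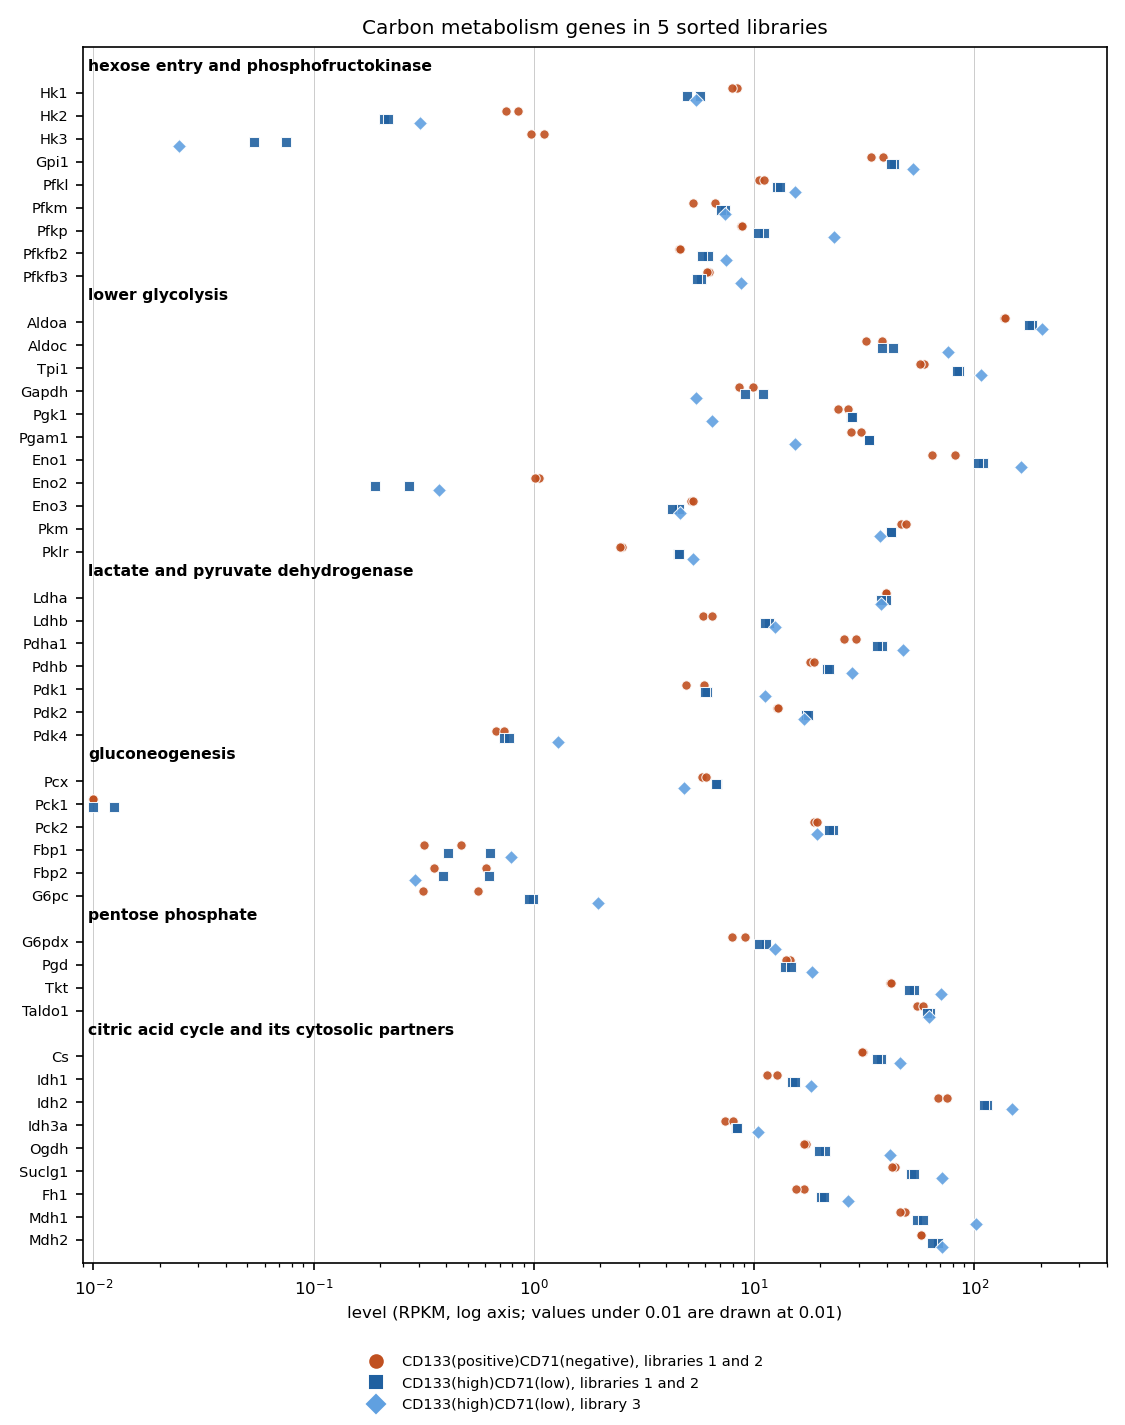
Level of each member in each of the 5 libraries, in RPKM on a log axis with values under 0.01 drawn at 0.01, ordered by role, with 1 point per library. Ldhb, Pklr, Idh2 and Tpi1 have every CD133(high)CD71(low) library to the right of both CD133(positive)CD71(negative) libraries, Hk1 has them to the left, and library 3 is far to the left of all others for Pgk1.

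**Figure D2:**
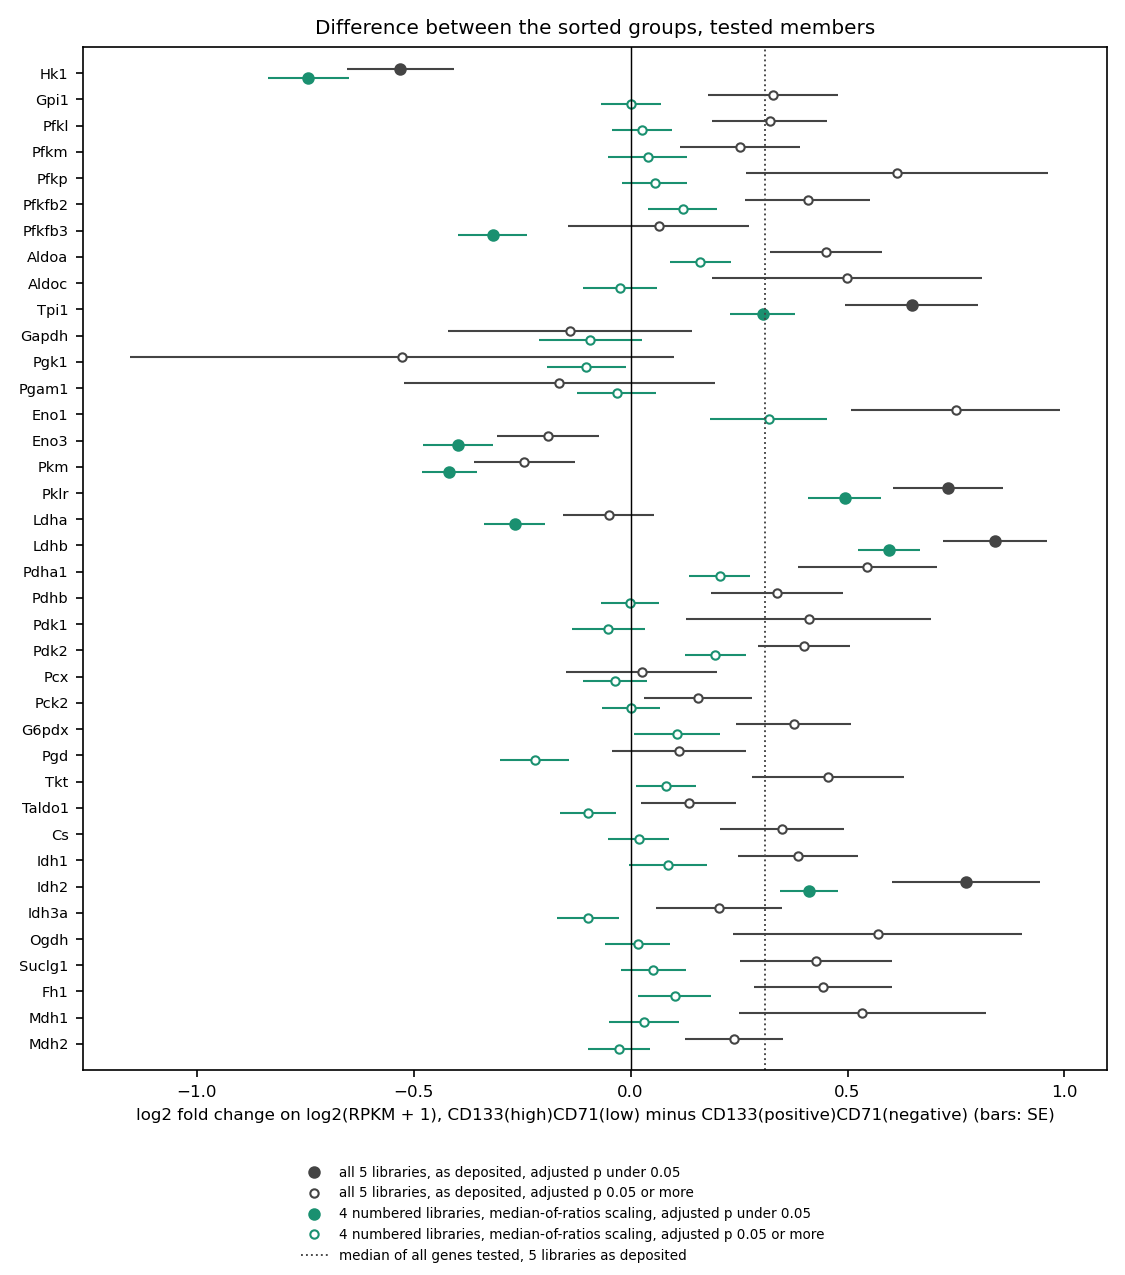
Fold change of each tested member with its standard error, on the log2(RPKM + 1) scale, positive where CD133(high)CD71(low) cells were higher, for all 5 libraries as deposited (grey) and the 4 numbered ones with median-of-ratios scaling (green), with filled points past the threshold and a dotted line at the median of all genes, 0.31. Filled grey points run from -0.53 for Hk1 to 0.84 for Ldhb, and most green points lie near 0.

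Glucose is trapped in the cell by hexokinases. Hk1, the broadly used hexokinase (chr10:62268855-62379908 in mm10), was 8.41 and 7.97 RPKM in CD133(positive)CD71(negative) cells and 5.70, 4.93 and 5.46 RPKM in CD133(high)CD71(low) cells. Means were 8.19 ± 0.311 (SD, n = 2) and 5.37 ± 0.394 (SD, n = 3), with no overlap. The fold change was -0.53 (SE 0.12, adjusted p = 0.0483, limma), and -0.83 (adjusted p = 0.0151) after median-of-ratios scaling. The call was lost without CD133(positive)CD71(negative) library 1 (adjusted p = 0.392, limma) or 2 (adjusted p = 0.254), and without CD133(high)CD71(low) library 1 (adjusted p = 0.127) or 2 (adjusted p = 0.151).

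Hk2 and Hk3, the hexokinase of insulin-responsive muscle and fat and a hexokinase best known from myeloid cells, were low and were not tested, since their means were under 1 RPKM. Hk3 was 0.966 and 1.11 RPKM in CD133(positive)CD71(negative) cells and 0.0536, 0.0746 and 0.0245 RPKM in CD133(high)CD71(low) cells. Hk2 was 0.747 and 0.851 RPKM against 0.210, 0.217 and 0.303 RPKM. Both sets of libraries were apart without overlap. With no filter on low values, limma called both lower, with fold changes of -0.95 (adjusted p = 0.000697) for Hk3 and -0.53 (adjusted p = 0.00615) for Hk2. Beside them, the summed level of 17 leukocyte markers was 1949 and 1891 RPKM against 50.4 to 89.8 RPKM, and that of 14 endothelial markers 847 and 908 RPKM against 85.1 to 249 RPKM. The part of these cells in the hexokinase values was not tested.

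The make-up of the hexokinase pool differed between the groups. Hkdc1, a further hexokinase-like enzyme that is no member of the list (chr10:62383137-62422491, upstream of Hk1, both on the minus strand), was 4.15 and 4.75 RPKM in CD133(positive)CD71(negative) cells and 7.22, 7.15 and 10.9 RPKM in CD133(high)CD71(low) cells. Its fold change was 0.77 (adjusted p = 0.0688, limma), and 0.39 (adjusted p = 0.00722) in the 4 numbered libraries with scaling. As shares of the summed RPKM of Hk1, Hk2, Hk3 and Hkdc1, in which scaling between libraries cancels, Hkdc1 held 29.1% and 32.4% against 54.7%, 57.8% and 65.4%. Hk1 held 58.9% and 54.3% against 43.3%, 39.9% and 32.6%. Hk1 was thus the largest part of the sum in both CD133(positive)CD71(negative) libraries and Hkdc1 in all 3 CD133(high)CD71(low) libraries. The sum itself was 14.3 and 14.7 RPKM against 13.2, 12.4 and 16.7 RPKM, with overlap. Shares are given as a description and were not tested.

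The next steps turn glucose 6-phosphate into fructose bisphosphate. Gpi1, the isomerase and the most abundant member of this stretch, was 33.9 and 38.6 RPKM in CD133(positive)CD71(negative) cells and 43.2, 41.9 and 52.6 RPKM in CD133(high)CD71(low) cells. Its fold change was 0.33 (SE 0.15, adjusted p = 0.167, limma) and -0.01 with median-of-ratios scaling. The liver, muscle and platelet subunits of phosphofructokinase, Pfkl, Pfkm and Pfkp, had fold changes of 0.32, 0.25 and 0.61, none past the threshold. Pfkp was 8.72 and 8.77 RPKM against 11.1, 10.4 and 23.2 RPKM, so library 3 alone was far from the rest. Pfkfb2 and Pfkfb3 make and remove fructose 2,6-bisphosphate, the main activator of phosphofructokinase. Pfkfb3 was 6.27 and 6.14 RPKM against 5.75, 5.52 and 8.72 RPKM, and overlapped. Its fold change was 0.06 (SE 0.21, adjusted p = 0.807, limma) with all libraries and -0.32 (SE 0.08, adjusted p = 0.0208) in the 4 numbered ones with scaling. Of the sum of the Pfkfb genes measured, Pfkfb2 held 30.8% in both CD133(positive)CD71(negative) libraries, against 41.4%, 40.9% and 34.5%.

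Lower glycolysis, from aldolase to pyruvate kinase, had 2 of 10 tested members higher and none lower, where 6.25% of all genes were higher and 7.22% lower. At an unadjusted p under 0.05 it had 4 higher and 0 lower, against 27.5% and 9.18% of all genes. The median fold change was 0.16, against 0.31 for all genes. That gap rested on library 3. Without it the medians were 0.197 and 0.203, and 8 of the 10 were above 0. Aldoa, the aldolase of most tissues and the most abundant member at this stage, was 136 and 138 RPKM in CD133(positive)CD71(negative) cells and 182, 178 and 203 RPKM in CD133(high)CD71(low) cells. It had no overlap and a fold change of 0.45 (SE 0.13, adjusted p = 0.0742, limma). Tpi1, triose phosphate isomerase (chr6:124810586-124814296), was 59.0 and 56.7 RPKM against 85.0, 83.4 and 107 RPKM. Means were 57.8 ± 1.61 (SD, n = 2) and 91.8 ± 13.2 (SD, n = 3), with no overlap. The fold change was 0.65 (SE 0.15, adjusted p = 0.0494, limma), and 0.31 (adjusted p = 0.152) with median-of-ratios scaling. The adjusted p was 0.34 or 0.273 without CD133(positive)CD71(negative) library 1 or 2, and 0.117 or 0.113 without CD133(high)CD71(low) library 1 or 2.

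Enolase, phosphoglycerate kinase, phosphoglycerate mutase and glucose phosphate isomerase each have near-identical copies elsewhere in the genome, which gene models may or may not count. The stretches of coding sequence below (GENCODE transcripts on GRCm38/mm10) are shown because a read from them matches the gene and its copy with few or no differences. Each was cut from the aligned coding sequence over 60 bases, as the stretch within an exon that had the most differences. It therefore does not give how often a gene and its copy differ along their length. Capitals mark the bases that differ between the gene and its copy.
Eno1 (chr4:150246570-150246629, plus strand): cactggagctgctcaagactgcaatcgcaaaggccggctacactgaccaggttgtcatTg
Gm4735, listed as Gm13699 (chr2:80837808-80837867, plus strand): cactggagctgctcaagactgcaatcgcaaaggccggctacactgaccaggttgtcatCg
Pgk1 (chrX:106187252-106187311, plus strand): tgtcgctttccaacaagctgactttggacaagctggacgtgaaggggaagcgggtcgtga
Pgk1-rs7 (chr12:10900181-10900240, minus strand): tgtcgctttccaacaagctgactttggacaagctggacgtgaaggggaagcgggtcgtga
Gm5537 (chr3:58104187-58104246, minus strand): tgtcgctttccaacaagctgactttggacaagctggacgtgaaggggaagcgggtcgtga
Pgam1 (chr19:41912048-41912107, plus strand): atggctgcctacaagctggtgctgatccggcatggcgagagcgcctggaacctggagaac
Pgam1-ps2 (chr7:27470476-27470535, minus strand): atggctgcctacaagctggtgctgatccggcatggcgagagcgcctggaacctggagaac
Gpi1 (chr7:34219040-34219099, minus strand): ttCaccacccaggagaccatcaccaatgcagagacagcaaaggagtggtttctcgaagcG
Gm1840 (chr8:5639971-5640030, plus strand): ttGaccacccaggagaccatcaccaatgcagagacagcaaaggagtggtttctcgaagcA
The Pgk1 and Pgam1 stretches are the same letter for letter in their copies, the Eno1 stretch differs from its copy at 1 base and that of Gpi1 at 2.

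The table of library 3 listed more of these copies than the others. Copies at 95% identity or more over at least 200 bases were found for 11 members. A table entry for at least 1 copy was present for 7 members in library 3 and for 2 in the numbered libraries. Those of Aldoa, Tpi1, Pkm and Pdhb had an entry in no table, and reads shared with them could not be followed. Pgk1, phosphoglycerate kinase, was 26.8 and 23.9 RPKM in CD133(positive)CD71(negative) cells, 27.5 and 27.8 RPKM in CD133(high)CD71(low) libraries 1 and 2, and 6.43 RPKM in library 3. In library 3 its copies Pgk1-rs7 and Gm5537, both 100% identical over 1255 and 1252 aligned bases, were listed at 20.2 and 18.9 RPKM. The Pgk1 fold change of -0.53 (SE 0.63, adjusted p = 0.511, limma) rested on library 3, and was 0.12 without that library. With the copies added, library 3 stood at 45.6 RPKM and the fold change was 0.36 (adjusted p = 0.304, limma). The numbered libraries have no entry for these copies, so the addition could raise library 3 only.

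Pgam1, phosphoglycerate mutase, was also lowest in library 3. It was 30.7 and 27.4 RPKM against 33.2 and 33.4 RPKM in libraries 1 and 2 and 15.3 RPKM in library 3, where Pgam1-ps2, 100% identical over 765 bases, was listed at 38.0 RPKM. The fold change was -0.16 (adjusted p = 0.714, limma), 0.19 without library 3 and 0.41 with the copy added. That copy too was listed for library 3 alone, so adding it could raise no other library. For Gpi1, whose own value in library 3 was not low, Gm1840 (98.7% identical over 1046 bases) added 51.6 RPKM there.

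Eno1, the enolase of most tissues (chr4:150236721-150248879), was 81.9 and 63.9 RPKM in CD133(positive)CD71(negative) cells and 109, 103 and 162 RPKM in CD133(high)CD71(low) cells. The groups did not overlap, and the fold change was 0.75 (SE 0.24, adjusted p = 0.0935, limma). The tables differed more in its copies. The copy Eno1b, listed as Gm5506 and 99.5% identical over 1736 bases, was 185 and 205 RPKM against 292 and 283 RPKM in libraries 1 and 2 and only 30.7 RPKM in library 3. Gm13699, 99.6% identical over 1302 bases, was listed for library 3 alone, at 346 RPKM. The sum of Eno1 and its listed copies was 267 and 269 RPKM against 401, 386 and 539 RPKM, with a fold change of 0.70 (SE 0.19, adjusted p = 0.0700, limma). Sums over copies add values per length of unlike transcripts, so they are approximate. The level of Eno1 itself is therefore uncertain in every library. The neuronal enolase Eno2, under the mean of 1 RPKM, was 1.06 and 1.02 RPKM against 0.190, 0.271 and 0.371 RPKM. With no filter it was called lower (fold change -0.68, adjusted p = 0.00695, limma). The muscle enolase Eno3 was 5.18 and 5.30 RPKM against 4.58, 4.24 and 4.59 RPKM, with all 3 libraries lower, and had a fold change of -0.19 (SE 0.12, adjusted p = 0.259, limma). In the 4 numbered libraries with scaling it was -0.40 (SE 0.08, adjusted p = 0.00801).

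Gapdh, the dehydrogenase often used as a reference gene, was 9.87 and 8.51 RPKM in CD133(positive)CD71(negative) cells and 11.0, 9.14 and 5.47 RPKM in CD133(high)CD71(low) cells. The groups overlapped and the fold change was -0.14 (SE 0.28, adjusted p = 0.695, limma). This was below Aldoa, Eno1 and Tpi1 per length in every library. The annotation holds 91 copies of it that met the same identity rule, 89 of them pseudogenes. The numbered tables listed 4 of these and the table of library 3 listed 39, of which 32 were under 0.01 RPKM and 19 at exactly 0. With the listed copies added Gapdh was 11.2 and 10.4 RPKM against 12.9, 11.1 and 7.81 RPKM. How reads that match several copies were assigned is not given in the sources used here.

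**Figure D3:**
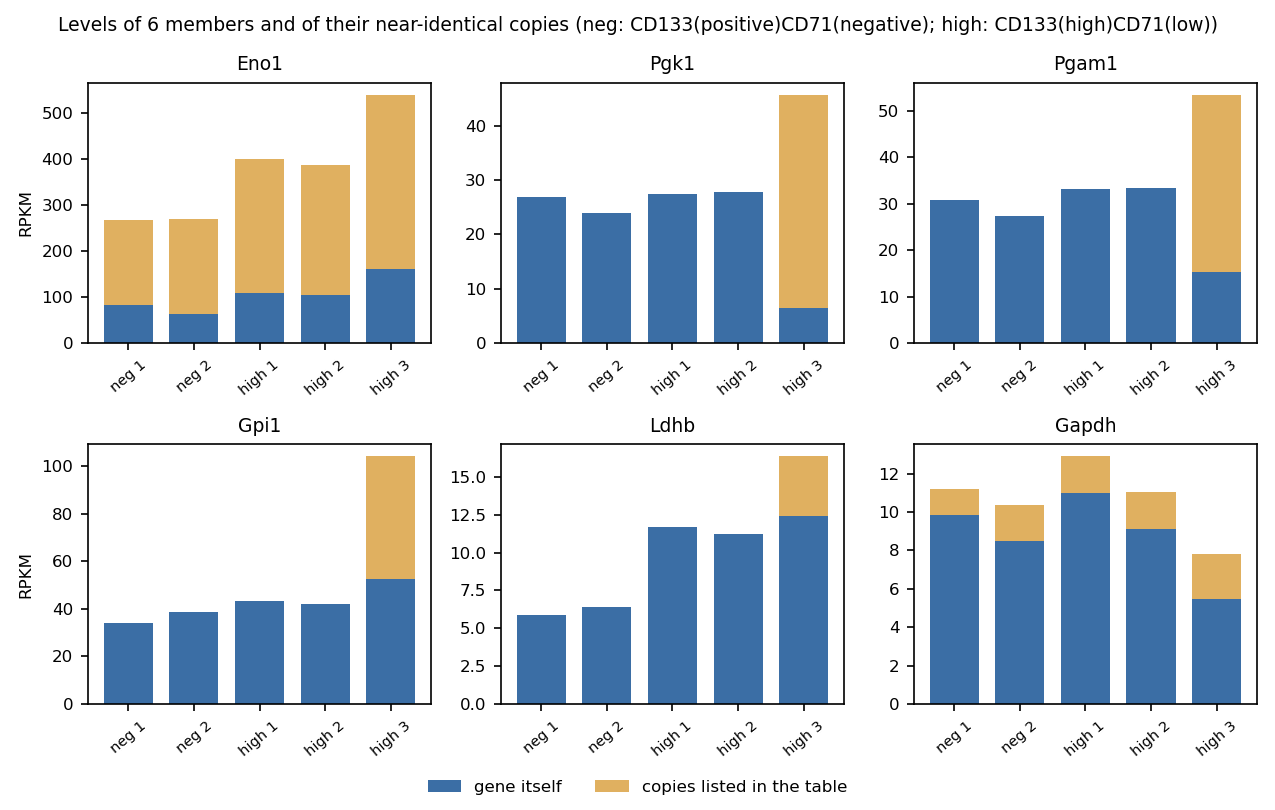
RPKM of 6 members and of their listed near-identical copies in each of the 5 libraries, stacked from 0. Pgk1, Pgam1, Gpi1 and Ldhb have copy values in library 3 alone, and for Eno1 the larger part of the sum lies in copies in every library.

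Pyruvate kinase ends glycolysis. Pklr, the liver and red-cell gene (chr3:89136142-89146784), was 2.51 and 2.45 RPKM in CD133(positive)CD71(negative) cells and 4.51, 4.58 and 5.28 RPKM in CD133(high)CD71(low) cells. Means were 2.48 ± 0.0403 (SD, n = 2) and 4.79 ± 0.422 (SD, n = 3), a ratio of 1.93 with no overlap. The fold change was 0.73 (SE 0.13, adjusted p = 0.0208, limma), and 0.47 (adjusted p = 0.0333) with median-of-ratios scaling. The adjusted p was 0.249 or 0.203 without CD133(positive)CD71(negative) library 1 or 2, and 0.068 or 0.0856 without CD133(high)CD71(low) library 1 or 2. Pklr is also a red-cell gene, and the summed level of the 6 erythroid markers found in all tables was 11.7 and 12.1 RPKM against 123, 118 and 32.3 RPKM. Pklr and this sum were thus both higher in all CD133(high)CD71(low) libraries. Of the single markers, Hba-a2, Hbb-b1, Hbb-b2 and Alas2 were too, whereas Hba-a1 and Epor overlapped. Hba-a1 was 4.83 and 4.03 RPKM against 58.5, 57.9 and, in library 3, 3.18 RPKM. Library 3 had the highest Pklr and the lowest erythroid sum of its group. It was deposited with other gene models, and only 6 of the 10 listed erythroid markers were in all tables. The part of the gene models in its erythroid sum was not tested. The part of red cells in the Pklr values was not tested.

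Pkm, which encodes the M forms found in most tissues, was 46.7 and 48.7 RPKM in CD133(positive)CD71(negative) cells and 41.7, 41.7 and 37.1 RPKM in CD133(high)CD71(low) cells. All 3 libraries lay below, with a fold change of -0.24 (SE 0.12, adjusted p = 0.179, limma), and -0.42 (SE 0.06, adjusted p = 0.00213) in the 4 numbered libraries with scaling. Pklr held 5.10% and 4.79% of the summed pyruvate kinase RPKM against 9.77%, 9.90% and 12.4%. Pkm thus remained the main gene in every library. The tables give 1 value per gene, so the M1 and M2 splice forms of Pkm cannot be told apart.

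Lactate dehydrogenase interconverts pyruvate and lactate. Ldhb (chr6:142490249-142507957), the gene of the heart-type subunit, had the highest fold change among the tested members on the log2(RPKM + 1) scale with all 5 libraries. As a ratio of mean RPKM it was level with Pklr, and without CD133(positive)CD71(negative) library 1 the fold change of Eno1 was higher (0.93 against 0.79). Ldhb was 5.87 and 6.41 RPKM in CD133(positive)CD71(negative) cells and 11.7, 11.2 and 12.5 RPKM in CD133(high)CD71(low) cells. Means were 6.14 ± 0.383 (SD, n = 2) and 11.8 ± 0.622 (SD, n = 3), a ratio of 1.92, and the groups were far apart. The fold change was 0.84 (SE 0.12, adjusted p = 0.0116, limma), 0.54 (adjusted p = 0.0278) with median-of-ratios scaling, and 0.60 (adjusted p = 0.000578) in the 4 numbered libraries with scaling. The call was lost without CD133(positive)CD71(negative) library 1 (adjusted p = 0.198, limma) or 2 (adjusted p = 0.141), and without CD133(high)CD71(low) library 1 (adjusted p = 0.0528) or 2 (adjusted p = 0.0558). The copy Gm5514 (98.0% identical over 1002 bases) was listed for library 3 alone, at 3.90 RPKM. With it added the fold change was 0.96 (adjusted p = 0.0299, limma). Adding it could raise library 3 only, so this larger value is no measure of the group difference. In the pair below, again the 60-base stretch with the most differences, Ldhb and its copy differ at 4 bases, shown as capitals.
Ldhb (chr6:142490545-142490604, minus strand): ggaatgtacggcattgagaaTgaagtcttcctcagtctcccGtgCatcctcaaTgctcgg
Gm5514 (chr19:21938217-21938276, plus strand): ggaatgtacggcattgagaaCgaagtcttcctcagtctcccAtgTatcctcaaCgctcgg

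Ldha, the muscle-type subunit, was nearly level. It was 39.8 RPKM in both CD133(positive)CD71(negative) libraries and 39.7, 37.7 and 37.8 RPKM in CD133(high)CD71(low) cells, with a fold change of -0.05 (SE 0.11, adjusted p = 0.701, limma). Relative to most genes, in the 4 numbered libraries with scaling, it was -0.27 (SE 0.07, adjusted p = 0.0247). Its 2 listed copies in library 3, Ldha-ps2 at 2.19 RPKM and Gm11814 at 1.31 RPKM, moved its value there only to 41.3 RPKM. Ldhb held 12.9% and 13.9% of the lactate dehydrogenase sum in CD133(positive)CD71(negative) cells and 22.7%, 22.9% and 24.8% in CD133(high)CD71(low) cells. The difference of 10.1 percentage points stayed between 9.48 and 10.6 with any 1 library left out. The part of leukocyte, endothelial or duct cells in this share was not tested, though the summed level of 14 duct markers was 3514 and 3738 RPKM against 5055, 5060.4 and 7197 RPKM.

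**Figure D4:**
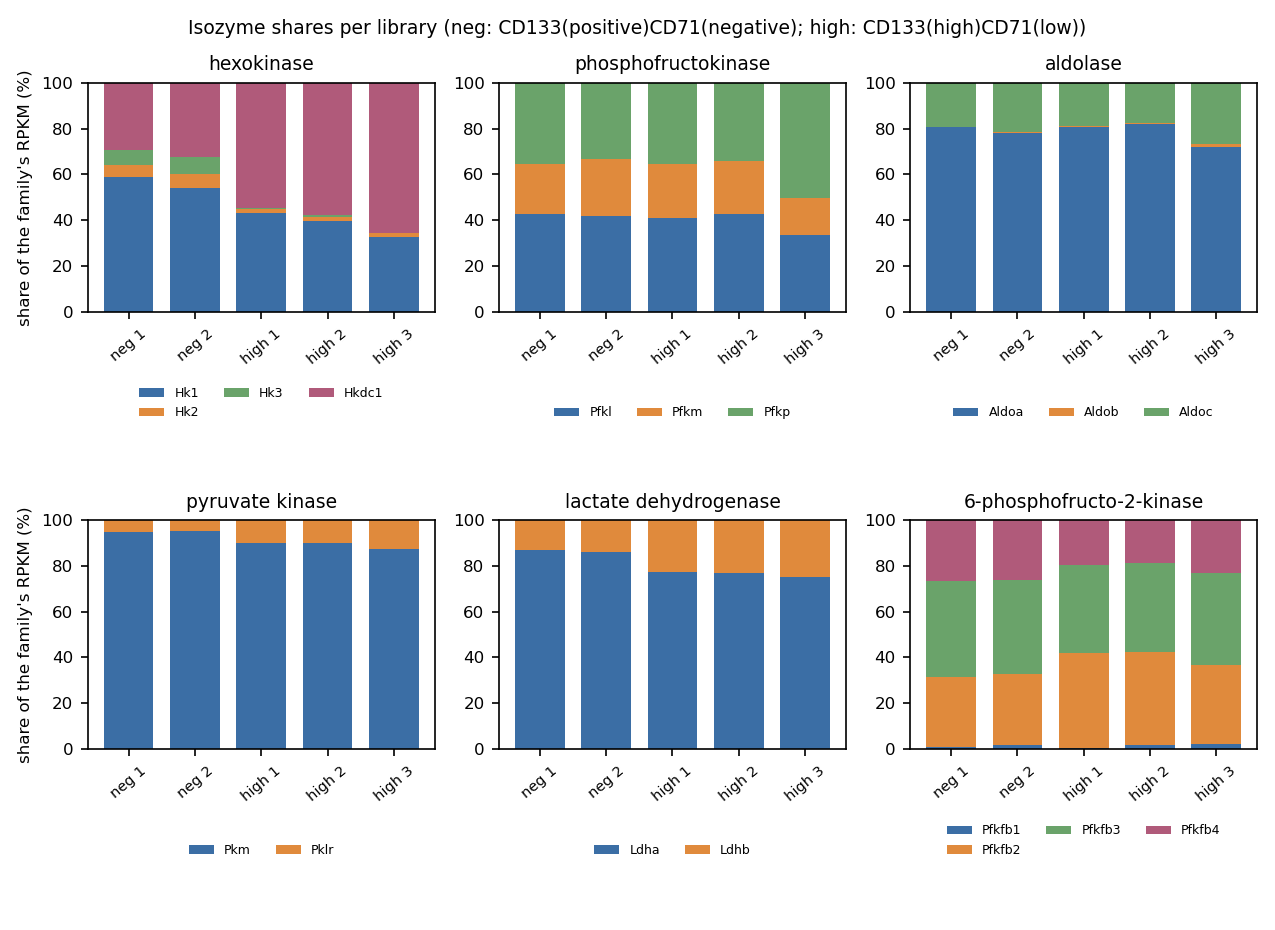
Share of each gene in the summed RPKM of its enzyme family, in percent, as stacked bars for each of the 5 libraries in 6 families. The shares of Hkdc1, Pklr and Ldhb are larger in all CD133(high)CD71(low) libraries than in either CD133(positive)CD71(negative) library, and those of Hk1, Hk2 and Hk3 are smaller.

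Pyruvate enters mitochondria through the pyruvate dehydrogenase complex. Its subunit genes Pdha1 and Pdhb had fold changes of 0.55 (adjusted p = 0.0783) and 0.34 (adjusted p = 0.165, limma), and both had all CD133(high)CD71(low) libraries above. Pdk2, a kinase that switches the complex off, was 12.7 and 12.8 RPKM against 17.1, 17.5 and 16.9 RPKM, with library 3 here close to the others of its group. Its fold change was 0.40 (SE 0.11, adjusted p = 0.0646, limma), and the adjusted p was 0.0385 with no filter on low values. Pdk1 was 4.90 and 5.90 RPKM against 6.12, 6.00 and 11.2 RPKM, and Pdk4, the kinase raised by fasting in muscle and liver, was 0.670 and 0.730 RPKM against 0.733, 0.769 and 1.29 RPKM.

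Among the genes of gluconeogenesis, Pck1, G6pc, Fbp1 and Fbp2 were at low levels. Pck1, the cytosolic carboxykinase, was 0 in both CD133(positive)CD71(negative) libraries and in CD133(high)CD71(low) library 1, and 0.0124 RPKM in library 2. The limit that 3 reads set was 0.0357 to 0.0571 RPKM in these libraries, for counting error only, and Pck1 had no entry in the table of library 3. G6pc, the liver glucose 6-phosphatase, was 0.559 and 0.314 RPKM against 0.988, 0.952 and 1.97 RPKM. Fbp1 and Fbp2, the fructose bisphosphatases, were between 0.288 and 0.784 RPKM in all 5 libraries and overlapped. The mitochondrial carboxykinase Pck2 was far higher per length, at 18.7 and 19.3 RPKM against 22.8, 21.8 and 19.3 RPKM, with a fold change of 0.16 (SE 0.12, adjusted p = 0.356, limma). Pyruvate carboxylase, Pcx, was 5.80 and 6.03 RPKM against 6.79, 6.71 and 4.81 RPKM. Of this group, 0 of 2 tested members were called in either direction by limma, and 0 at an unadjusted p under 0.05, too few to set against the 13.5% of all genes called.

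In the pentose phosphate branch, 0 of 4 members were called by limma, against 13.5% of all genes. At an unadjusted p under 0.05, 2 were higher and 0 lower, against 27.5% and 9.18% of all genes, so these few members do not stand apart from the background. Taldo1, transaldolase and the most abundant of the 4, was 54.6 and 58.3 RPKM in CD133(positive)CD71(negative) cells and 62.8, 60.9 and 62.3 RPKM in CD133(high)CD71(low) cells. Its fold change was 0.13 (SE 0.11, adjusted p = 0.363, limma) and -0.20 with median-of-ratios scaling. Transketolase, Tkt, had a fold change of 0.46 and the oxidative enzymes G6pdx and Pgd had 0.38 and 0.11. H6pd, the glucose 6-phosphate dehydrogenase of the endoplasmic reticulum and no member of the list (chr4:149979475-150009023), rose more than these. It was 13.9 and 16.6 RPKM against 26.6, 25.6 and 32.8 RPKM, with a fold change of 0.85 (SE 0.16, adjusted p = 0.0267, limma) and 0.52 (adjusted p = 0.0235) with scaling.

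The next list joins citric acid cycle genes with their partners, among them the NADP-dependent Idh1 and Idh2 and the cytosolic Mdh1. It had positive fold changes for 9 of 9 members, with a median of 0.43. Of all tested genes, 80.4% were positive, with a median of 0.31. All 9 had the CD133(high)CD71(low) libraries above without overlap, as did 58.2% of all tested genes. Of the 9, 1 passed the threshold (11.1%, against 13.5% of all genes). With median-of-ratios scaling 7 of the 9 were positive with a median of 0.09, against 52.3% and 0.02 for all genes. Idh2, the mitochondrial NADP-dependent isocitrate dehydrogenase (chr7:80094846-80115392), was the most abundant of them per length. It was 68.4 and 75.1 RPKM in CD133(positive)CD71(negative) cells and 114, 110.3 and 148 RPKM in CD133(high)CD71(low) cells. Means were 71.8 ± 4.74 (SD, n = 2) and 124 ± 20.8 (SD, n = 3), with no overlap. The fold change was 0.77 (SE 0.17, adjusted p = 0.0413, limma), 0.43 (adjusted p = 0.0629) with median-of-ratios scaling and 0.41 (adjusted p = 0.00271) in the 4 numbered libraries with scaling. The call was lost without CD133(positive)CD71(negative) library 1 (adjusted p = 0.354, limma) or 2 (adjusted p = 0.223), and without CD133(high)CD71(low) library 1 (adjusted p = 0.102) or 2 (adjusted p = 0.0936).

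The other members of this list did not pass the threshold. The cytosolic Idh1 and the NAD-dependent subunit Idh3a had fold changes of 0.39 and 0.20. Ogdh, of the oxoglutarate dehydrogenase complex, was 17.2 and 16.9 RPKM against 20.9, 19.6 and 41.4 RPKM. Mdh1, the cytosolic malate dehydrogenase, was 48.3 and 46.0 RPKM against 54.9, 58.4 and 101 RPKM, whereas the mitochondrial Mdh2 was 57.5 and 57.3 RPKM against 68.2, 64.2 and 71.4 RPKM. Library 3 was thus far above its group for Ogdh and Mdh1 but not for Mdh2. Citrate synthase Cs, succinate-CoA ligase Suclg1 and fumarase Fh1 had fold changes of 0.35, 0.43 and 0.44.

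A further 41 genes of the same pathways, not on the list, were read in the same fit. Of the 35 tested, 1 (H6pd) was higher and 0 lower in limma, which is 2.86%, against 13.5% of all genes. At an unadjusted p under 0.05, 15 were higher and 0 lower, against 27.5% and 9.18% of all genes, and the median fold change was 0.42 against 0.31. In the 4 numbered libraries with scaling, 5 were higher and 1 lower, where 12.3% of all genes were higher and 18.1% lower. Higher were H6pd, Hkdc1, the aconitase Aco1, the malic enzyme Me1 and the succinate-CoA ligase subunit Sucla2, with fold changes of 0.52, 0.39, 0.28, 0.31 and 0.30. Lower was Pfkfb4, at -0.57.

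Summed over the members with a value in all tables, the pathways stood at 1068 and 1065 RPKM in CD133(positive)CD71(negative) cells and 1332, 1297 and 1623 RPKM in CD133(high)CD71(low) cells, with no overlap. As a share of all values that are not acinar markers, they were 0.569% and 0.547% against 0.612%, 0.605% and 0.559%, and the groups then overlapped through library 3.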

How the data were processed

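Members and lists were chosen with earlier results of these data known. The authors deposited 1 table per library, with Partek and mm10 used per the submitters' processing notes (aligner and annotation: not given in the sources used here). The deposited values behaved as RPKM, since 43.1% to 58.4% of low values came within 0.05 reads of whole reads. The depth behind these shares was picked per library for the strongest steps in the same values. Chance gives 10.0% for a depth fixed beforehand, and its share for a picked depth was not worked out. Count tests were not run on them, and FPKM cannot be told apart. A row of 74.2 M alignments naming no gene, in the table of library 3, was left out. The depth inferred for that library was 41.84 M reads, and the difference was not resolved. Log2(RPKM + 1) of genes with a mean of at least 1 was fitted with limma 3.58.1 in R 4.3.3 (trend, group only), with p-values adjusted by Benjamini-Hochberg (threshold 0.05), and the code was checked on simulated data. Alternatives were other pseudocounts, filters and scalings, each library left out, and a replicate block. Sums over copies and isozyme shares were added after seeing the data. Full values are given for members called with 5 libraries or with the 4 numbered ones scaled, the highest of each role, Gapdh, Ldha, Pgk1 and the 3 largest changes each way. Any other gene with full values was picked with its values in view. Copies were found with blastn 2.17.0 in GENCODE transcripts of GRCm38 (95% identity over 200 bases, and 50% of the copy unless a pseudogene). Tables and plots used matplotlib 3.10.9, pandas 2.3.3, numpy 2.4.6 and Python 3.11.15.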

Additional observations from a re-analysis of the deposited data

Results flagged for a closer look

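Signals were listed for copies of members that only the table of library 3 of CD133(high)CD71(low) holds, above the limit that 3 reads set there. The copy Gm13699 of Eno1 was at 346 RPKM. Gm1840, a copy of Gpi1, was at 51.6 RPKM, and Pgam1-ps2, a copy of Pgam1, at 38.0 RPKM. The Pgk1 copies Pgk1-rs7 and Gm5537 were at 20.2 and 18.9 RPKM. Gm5514, a copy of Ldhb, was at 3.90 RPKM. The Ldha copies Ldha-ps2 and Gm11814 were at 2.19 and 1.31 RPKM. Of the Gapdh copies, Gm12033 was at 0.389, Gm14130 at 0.242 and Gm13882 at 0.101 RPKM. The numbered libraries of both groups have no entry for these symbols, so the groups cannot be compared on them.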

How the results depend on the processing

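With 2 libraries against 3, calls changed with the library left out and with scaling, and the cause was not tested. All members called with 5 libraries stayed called without library 3. With 1 library left out in turn, the fold change of Ldhb ran from 0.79 to 0.90 and that of Pklr from 0.67 to 0.77. Tpi1 ran from 0.53 to 0.71, Idh2 from 0.64 to 0.85 and Hk1 from -0.57 to -0.48. For all genes, higher calls (735) were 227 with median-of-ratios scaling, 213 with acinar genes removed, 1446 in the 4 numbered libraries scaled, and 0 to 4785 with 1 library left out. Lower calls (850) were 1729 with no filter, 315 with a mean of at least 5, 2122 in the numbered libraries scaled, and 154 to 1425 with 1 library left out. Members called higher (4) were 1 with a mean of at least 5, 2 with either scaling and 0 to 21 with 1 library left out. Members called lower (1) were 4 with no filter, 0 with a mean of at least 5, 5 in the numbered libraries scaled, and 0 to 1 with 1 library left out. Other carbon metabolism genes called higher (1) were 2 with no filter or with acinar genes removed, 5 in the numbered libraries scaled and 0 to 20 with 1 library left out, and those called lower (0) were 1 in the numbered libraries scaled and 0 to 1 with 1 left out. The members' median fold change (0.362) was 0.383 with a pseudocount of 0.1, 0.328 with no filter, 0.039 with median-of-ratios scaling, 0.062 with acinar genes removed, 0.018 in the numbered libraries scaled, 0.393 with copies added and 0.239 to 0.399 with 1 library left out.

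The replicate numbers were not shown to pair the libraries, since deviations of same-numbered libraries correlated at -0.024 over only 2 pairs. With the number as a replicate block in the 4 numbered libraries, 5275 genes were higher and 1543 lower, 21 members were higher and 1 lower, 20 other carbon metabolism genes were higher and 1 lower, and the members' median was 0.239, against 21 and 1 members without the block.

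No called member changed direction under any of these alternatives. Members that were not called turned as follows, on the log2 scale. With median-of-ratios scaling: Gpi1 -0.01, Pfkm -0.04, Pfkfb3 -0.24, Pcx -0.27, Pck2 -0.17, Pgd -0.21, Taldo1 -0.20, Idh3a -0.10 and Mdh2 -0.10. With acinar genes removed: Pfkm -0.02, Pfkfb3 -0.21, Pcx -0.24, Pck2 -0.15, Pgd -0.19, Taldo1 -0.18, Idh3a -0.08 and Mdh2 -0.08. Without library 3, with or without the block: Pfkfb3 -0.12, Pgd -0.00, Gapdh 0.12, Pgk1 0.12 and Pgam1 0.19. In the numbered libraries scaled: Pfkfb3 -0.32, Aldoc -0.03, Pdhb -0.00, Pdk1 -0.05, Pcx -0.04, Pgd -0.22, Taldo1 -0.10, Idh3a -0.10 and Mdh2 -0.03. Pcx was -0.05 and -0.04 without CD133(high)CD71(low) library 1 or 2. With 1 library left out in turn, Pfkfb3 ran from -0.12 to 0.17, Gapdh from -0.33 to 0.12, Pgk1 from -0.86 to 0.12, Pgam1 from -0.35 to 0.19, Pcx from -0.05 to 0.16 and Pgd from -0.00 to 0.19. With copies added, Pgk1 was 0.36 and Pgam1 0.41, through library 3 alone, the only one with entries for these copies. Levels near 1 read, such as those of Pck1, could not be told from 0 at this depth.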
